A study of Mus musculus with 8 samples.

Results

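The 29 genes described here are the core circadian clock of the mouse, the proteins that modify it and a set of its output genes. They were taken by gene symbol from the 46040 genes of a count table, and all 29 have a row in it. The table holds RNA sequencing counts from the left ventricles (LVs) of 8 male mice, 5 to 7 months old at the operation and on a C57BL/6 background, all of which had received angiotensin II (angII) by osmotic minipump at 0.1 mg/kg/h for 14 days to raise the pressure load of the heart. VEGFR-1 TK-/- mice carry germline alleles of *Flt1* that lack the tyrosine kinase domain of VEGFR-1 in every cell, and littermates served as controls. Only mice that survived the infusion could be sampled. The labels name the genotype in conflicting ways, since the titles give the opposite of the genotype tags and library names. The tags (wildtype or TK-/-) were used here, which gives 4 control-tagged and 4 TK-/- tagged libraries, and every sign between the groups reverses if the titles hold. The library names also hold the word cardiomyo, whereas the study's methods name LV tissue for the angII mice. Markers of endothelium, fibroblasts and macrophages were present in all 8 libraries, and the source was taken from the methods. The hour of tissue collection and the light cycle are not given in the sources used here.

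The clock is a feedback loop of transcription. ARNTL (also called BMAL1) pairs with CLOCK or NPAS2, binds E-box sequences and activates the *Per*, *Cry*, *Nr1d* and *Dbp* genes, and the PER and CRY proteins then block that pair. The NR1D receptors repress *Arntl* through ROR elements, so that *Arntl* RNA is low when *Nr1d1* and *Dbp* RNA is high, and the same loop runs in heart muscle, where it times metabolism and ion channel expression. Genes were therefore described in an *Arntl* arm of 5 genes and a *Dbp* arm of 12 that peak at the opposite time of day. The 12 other members were placed in neither arm. The arms follow known peak times, but they were set with earlier results of these data known.

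The elements that tie the arms together are short. In the RefSeq promoter windows of GRCm38.p6, which run from 250 bases before to 50 after a gene start and exist in the table used for 24 of the 29 members, 3 motifs were searched on both strands. The E-box was CACGTG, the D-box bound by DBP, TEF, HLF and NFIL3 was TTATGTAA or TTACGTAA, and the ROR element was TAGGTCA or TGGGTCA. None of these letters contains another motif of the set. An E-box lay in the windows of 6 of 24 members (*Bhlhe41*, *Ciart*, *Cry1*, *Klf15*, *Per1* and *Tef*), against 8.09% of 27025 genes. A ROR element lay in 2 of 24, *Arntl* and *Nfil3*, both of the *Arntl* arm, a share close to the 7.35% of all genes. A D-box lay in 2 of 24, *Per3* and *Timeless*, against 1.23% of genes. The windows of *Dbp*, *Hlf*, *Nr1d1*, *Nr1d2* and *Usp2* of the *Dbp* arm and of *Clock* and *Npas2* of the *Arntl* arm held none of the 3 motifs. The stretches below are those of the genes that vary most or that mark an arm. Motifs are in capitals, and each line reads 5′ to 3′ on the strand of the gene.

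*Arntl* (ROR element, chr7:113207530-113207559, plus strand): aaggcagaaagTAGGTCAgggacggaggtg

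*Nfil3* (ROR element read on the other strand, chr13:52981033-52981062, minus strand): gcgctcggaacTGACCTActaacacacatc

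*Cry1* (E-box, chr10:85185097-85185126, minus strand): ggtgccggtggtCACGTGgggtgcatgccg

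*Per1* (E-box, chr11:69098771-69098800, plus strand): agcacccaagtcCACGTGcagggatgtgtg

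*Tef* (E-box before the first of its 2 RefSeq starts, chr15:81802534-81802563, plus strand): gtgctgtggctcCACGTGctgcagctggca

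*Ciart* (3 E-boxes, chr3:95882255-95882356, minus strand): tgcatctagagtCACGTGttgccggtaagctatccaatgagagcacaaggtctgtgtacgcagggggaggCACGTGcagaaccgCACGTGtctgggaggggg

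*Per3* (2 D-boxes, chr4:151044804-151044882, minus strand): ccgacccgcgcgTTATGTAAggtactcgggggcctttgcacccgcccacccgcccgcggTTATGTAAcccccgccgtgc

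The 3 E-boxes of *Ciart* started 116, 58 and 44 bases before its gene start, and the 2 D-boxes of *Per3* 205 and 158 bases before. The ROR element of *Arntl* began at base 31 after the later of its 2 RefSeq starts. These matches are descriptions of the windows and were not measured as binding.

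Counts on genes lay between 11449137 and 16239670 per library. Of the 46040 genes, 13542 reached a CPM (the count scaled to a common library size) of 1 in 2 or more libraries and were tested, 28 of the 29 members among them. *Fbxl21*, which encodes a ubiquitin ligase subunit for the CRY proteins, had 1 to 9 counts per library and was not tested. Values are given as normalized CPM, for which library sizes were adjusted with TMM factors (trimmed mean of M-values). Heart muscle markers were high in every library, the 8 genes of the cardiomyocyte list summing to 64274 to 102610 normalized CPM. *Flt1* itself, at 69.3 ± 11.3 normalized CPM in control-tagged and 158 ± 13.2 in TK-/- tagged LVs (SD, n = 4 each), was counted as a whole, and such a count does not show the lost domain or settle the labels.

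Levels between genes were compared per kb of exon, with the union of the GENCODE M21 exons. *Nr1d1*, which encodes the receptor REV-ERBα, was the most abundant member at 40.9 ± 10.6 (SD, n = 8) normalized CPM per kb. *Nampt*, the rate-limiting enzyme of NAD salvage, followed at 32.2 ± 6.23 (SD, n = 8), and the ranges of both over the libraries overlapped. *Klf15*, *Usp2*, *Csnk1d* and *Lpin1* came next with means of 24.6, 22.1, 21.7 and 19.9 normalized CPM per kb, again with overlapping ranges. The activators were modest, *Arntl* at 3.58 ± 0.745, *Clock* at 3.17 ± 0.192 and *Npas2* at 1.86 ± 0.460 (SD, n = 8). *Per3* had the lowest mean of the tested members, 1.08 ± 0.457 (SD, n = 8), and *Fbxl21* was at 0.0761. In bulk tissue, fewer cells of a type and less RNA per cell cannot be told apart.

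**Figure D1:**
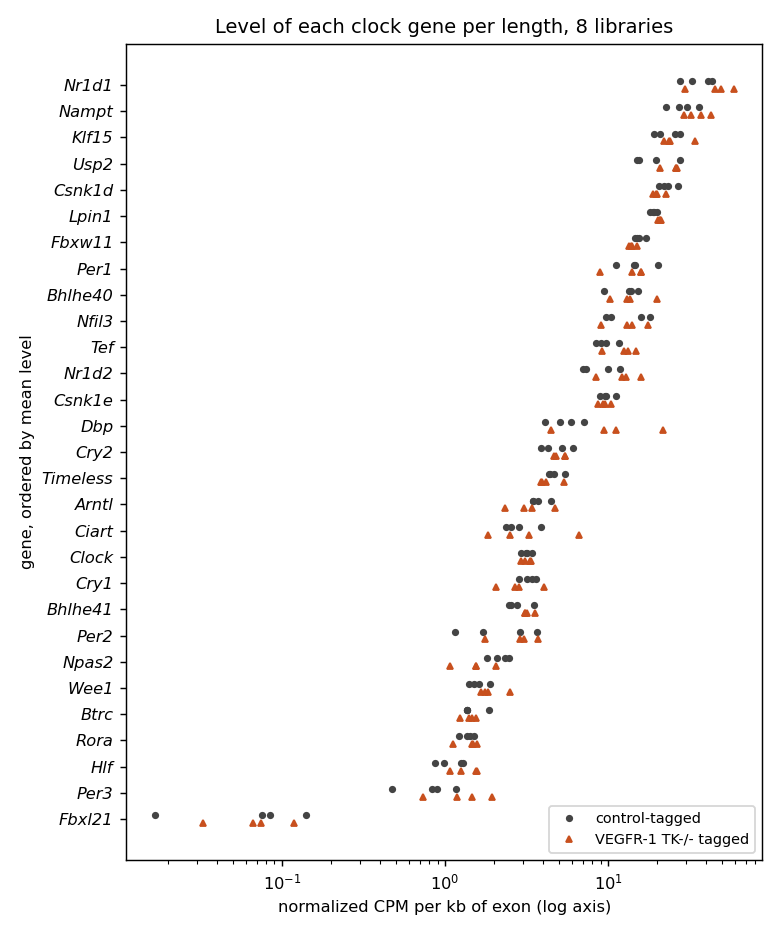
Level of each of the 29 members in normalized CPM per kb of exon, on a log axis, with 1 point per library (circles, control-tagged; triangles, TK-/- tagged) and genes ordered by their mean over 8 libraries. *Nr1d1* is at the top with a mean of 40.9 and *Fbxl21* at the bottom with 0.0761, and *Dbp* and *Per3* have wide ranges.

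The members differed from each other in how much they varied between mice. The SD of log2 normalized CPM over the 8 libraries had a median of 0.31 in the *Arntl* arm, 0.36 in the *Dbp* arm and 0.18 in the other members, against 0.22 over all 13542 genes. *Dbp*, which encodes a bZIP activator of output genes, varied most, with an SD of 0.80 (above 98.7% of genes tested) and a 5.28-fold span from its lowest to its highest library. *Per3*, *Per2* and *Ciart* followed with SDs of 0.62, 0.60 and 0.55. *Clock* (0.09) and *Lpin1* (0.08), the phosphatidic acid phosphatase lipin 1, were among the steadiest genes of the table.

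In the *Arntl* arm, *Arntl* (ENSMUSG00000055116, chromosome 7 of GRCm38, 113207465 to 113314126) had 28.1, 33.5, 26.0 and 26.2 normalized CPM in control-tagged replicates 1 to 4. In the TK-/- tagged replicates 1 to 4 it had 17.6, 23.1, 25.8 and 35.3. Its lowest and its highest library were thus both TK-/- tagged, and the groups overlapped. *Npas2* (ENSMUSG00000026077, chromosome 1, 39193731 to 39363236), the partner of ARNTL that can stand in for CLOCK, had 10.03, 11.1, 11.8 and 8.64 in the control-tagged and 7.39, 7.37, 5.14 and 9.80 normalized CPM in the TK-/- tagged replicates. Only TK-/- tagged replicate 4 reached the range of the control-tagged libraries. *Clock* lay between 39.9 and 46.9 in all 8 libraries. *Cry1*, the CRY repressor whose RNA peaks late and close to that of *Arntl*, ranged from 9.44 to 12.1 in the control-tagged libraries. It had 6.91, 8.97, 9.48 and 13.6 normalized CPM in the TK-/- tagged replicates 1 to 4, the same order as *Arntl*. The order differed in the control-tagged group, where replicate 2 had the highest *Arntl* and the lowest *Cry1*. *Nfil3*, a bZIP repressor that competes with DBP for the D-box, ranged from 19.6 to 36.5 in the control-tagged and from 18.3 to 35.6 in the TK-/- tagged libraries.

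In the *Dbp* arm, *Dbp* (ENSMUSG00000059824, chromosome 7, 45705088 to 45710203) had 21.2, 12.3, 15.1 and 17.7 normalized CPM in control-tagged replicates 1 to 4. The TK-/- tagged replicates 1 to 4 had 64.8, 28.2, 33.3 and 13.4. Replicates 1 to 3 of the TK-/- tagged group were above every control-tagged library and replicate 4 was below 3 of them. The other PAR bZIP genes, *Tef* and *Hlf*, spread less. *Tef* (chromosome 15, 81802421 to 81826863) ranged from 66.1 to 91.4 in the control-tagged libraries and had 116.7, 97.8, 104.8 and 72.4 in the TK-/- tagged replicates. *Hlf* ranged from 5.81 to 8.56 and from 7.17 to 10.6 normalized CPM.

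The period genes encode the repressors that accumulate with CRY, and *Per3* and *Per2* had their highest value in TK-/- tagged replicate 1, as *Dbp* did. *Per3* (ENSMUSG00000028957, chromosome 4, 151003652 to 151044665) had 8.01, 4.57, 8.54 and 11.3 normalized CPM in the control-tagged and 18.5, 11.4, 13.98 and 7.01 in the TK-/- tagged replicates. *Per2* had 16.9, 6.75, 10.02 and 21.6 in the control-tagged and 21.9, 17.8, 16.8 and 10.4 in the TK-/- tagged replicates. Control-tagged replicate 2 was the lowest library for both, as for *Dbp*. *Per1*, which also responds quickly to hormones and other stimuli, differed from them. It went from 63.1 to 113 and from 50.4 to 89.8, with its highest value in control-tagged replicate 4 and its lowest in TK-/- tagged replicate 2.

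The receptors that repress *Arntl* were high in most TK-/- tagged libraries. *Nr1d1* (chromosome 11, 98767932 to 98775333) had 133, 101, 125 and 85.2 normalized CPM in the control-tagged and 181, 139.6, 152 and 90.9 in the TK-/- tagged replicates. *Nr1d2* (ENSMUSG00000021775, chromosome 14, 18204054 to 18239127), its paralog REV-ERBβ, had 53.7, 38.0, 39.4 and 64.2 in the former and 85.6, 65.7, 69.5 and 45.5 in the latter. In both genes TK-/- tagged replicate 1 was the highest library and replicate 4 the lowest of its group. *Nr1d1* shares 263 exon bases with *Thra* on the opposite strand and *Dbp* shares 539 with *Sphk2*. Whether strand entered the counting is not given in the sources used here. *Thra* and *Sphk2* had log2 fold changes of −0.08 and −0.11 between the groups.

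Of the remaining genes of the arm, *Ciart*, a repressor of the ARNTL and CLOCK pair, had 14.95 normalized CPM in TK-/- tagged replicate 1 and 4.17 to 8.72 in the other libraries. *Usp2*, a deubiquitinase with a strong daily rhythm, ranged from 72.9 to 132 in the control-tagged and from 99.6 to 127 in the TK-/- tagged libraries. *Bhlhe41* (DEC2, a repressor at E-boxes) and *Wee1* (a kinase that holds back mitosis) differed from the rest of the arm in having their highest library in TK-/- tagged replicate 4, at 24.0 and 8.61 normalized CPM. In the heat map of all members by library, the deviations of the 12 genes averaged +0.53 on the log2 scale in TK-/- tagged replicate 1, −0.49 in control-tagged replicate 2 and −0.19 in TK-/- tagged replicate 4. The 5 genes of the *Arntl* arm averaged −0.40, +0.05 and +0.31 in the same libraries. The highest library was TK-/- tagged replicate 1 in 7 of the 12 genes, and the lowest was control-tagged replicate 2 in 7 of the 12.

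**Figure D2:**
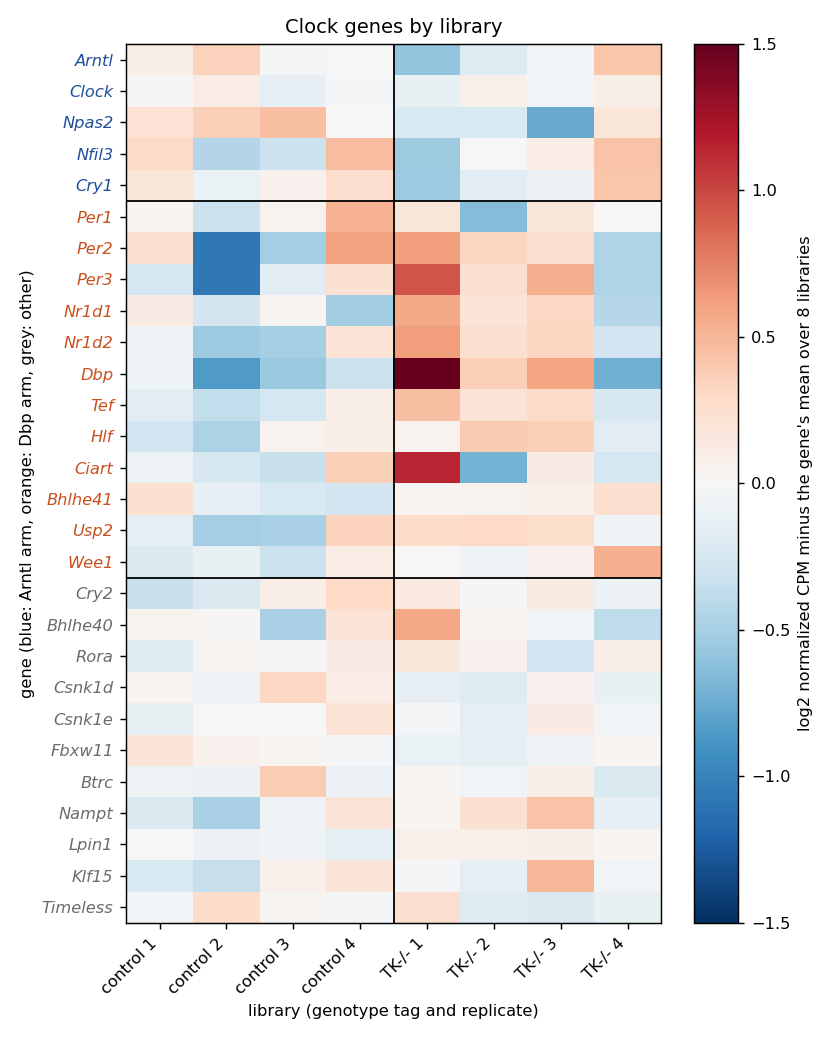
Heat map of the 28 tested members (rows) in the 8 libraries (columns); colour is log2 normalized CPM minus the mean of the gene over the 8 libraries, and lines separate the genotype tags and the arms. The *Dbp* arm is highest in TK-/- tagged replicate 1 (mean deviation 0.53), where the *Arntl* arm is lowest (−0.40).

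The ratio of *Dbp* to *Arntl* within a library, taken per kb of exon, does not depend on the scaling between libraries. It was 1.89, 0.921, 1.45 and 1.69 in control-tagged replicates 1 to 4 and 9.27, 3.07, 3.25 and 0.953 in TK-/- tagged replicates 1 to 4. Replicates 1 to 3 of the TK-/- tagged group were above every control-tagged library, and replicate 4 lay within the control-tagged range.

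Between the genotype tags, the *Dbp* arm leaned higher in the TK-/- tagged LVs, without any member passing the threshold. The log2 fold change was positive in 11 of the 12 genes of the *Dbp* arm, with a median of 0.33, and negative in 4 of the 5 genes of the *Arntl* arm, with a median of −0.16. Within the *Arntl* arm it was −0.49 for *Npas2*, −0.16 for *Arntl* and for *Cry1*, −0.007 for *Nfil3* and 0.01 for *Clock*. The median over all genes tested was −0.001, and 49.7% of all genes had a positive value. Genes were called where the FDR (Benjamini-Hochberg) of edgeR's quasi-likelihood test was under 0.1 and the change was 1.5-fold or more in either direction. By this rule 0 of 28 members were called, against 0.00738% of all genes (1 of 13542). The 1 gene called was the targeted gene *Flt1*, with a log2 fold change of 1.19 (SE 0.12, FDR = 0.00808). The likelihood ratio test called 0 of 28 members, against 0.391% of all genes, and DESeq2 also called 0. The lowest FDR of a member was 0.468, that of *Dbp*.

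At an unadjusted p under 0.05, 5 of 28 members (17.9%) passed, against 8.96% of all genes. *Dbp*, *Per3*, *Nr1d2* and *Tef* of the *Dbp* arm were on the higher side, where 3.32% of all genes lay, and *Npas2* on the lower side, where 5.64% lay. *Dbp* averaged 16.5 ± 3.80 normalized CPM with the control tag and 34.9 ± 21.6 with the TK-/- tag (SD, n = 4 each). This is a log2 fold change of 1.08 (SE 0.36, FDR = 0.468). *Per3* had a log2 fold change of 0.65 (SE 0.30, FDR = 0.556), *Nr1d2* of 0.45 (SE 0.20, FDR = 0.553) and *Tef* of 0.36 (SE 0.15, FDR = 0.521). *Npas2* averaged 10.4 ± 1.37 normalized CPM with the control tag and 7.43 ± 1.91 with the TK-/- tag (SD, n = 4 each). Its log2 fold change was −0.49 (SE 0.19, FDR = 0.506). The exact 2-sided permutation tests of these 5 genes over the libraries gave p-values of 0.114, 0.171, 0.143, 0.0857 and 0.0571 in that order, where 4 libraries against 4 allow no less than 0.0286.

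Which members passed at this level depended on single mice. When 1 library was left out, *Dbp* dropped out only without TK-/- tagged replicate 1. *Per3*, *Nr1d2* and *Tef* stayed only without control-tagged replicate 4 or TK-/- tagged replicate 4. Without TK-/- tagged replicate 1, the log2 fold change of *Dbp* was 0.59, with an unadjusted p over 0.05, and 1 member, *Npas2*, was under that level, beside 8.62% of all genes. Without TK-/- tagged replicate 4, that of *Dbp* was 1.35 and 11 members were under it, beside 9.94% of all genes. The number was 3, 2, 1 and 7 without control-tagged replicates 1, 2, 3 and 4, and 2 without TK-/- tagged replicate 2 or 3, while the share of all genes lay between 5.25% and 10.1% over the 8 fits. With *Arntl* as a covariate it was 1 (6.13% of all genes), *Dbp*, whose log2 fold change was then 0.48.

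**Figure D3:**
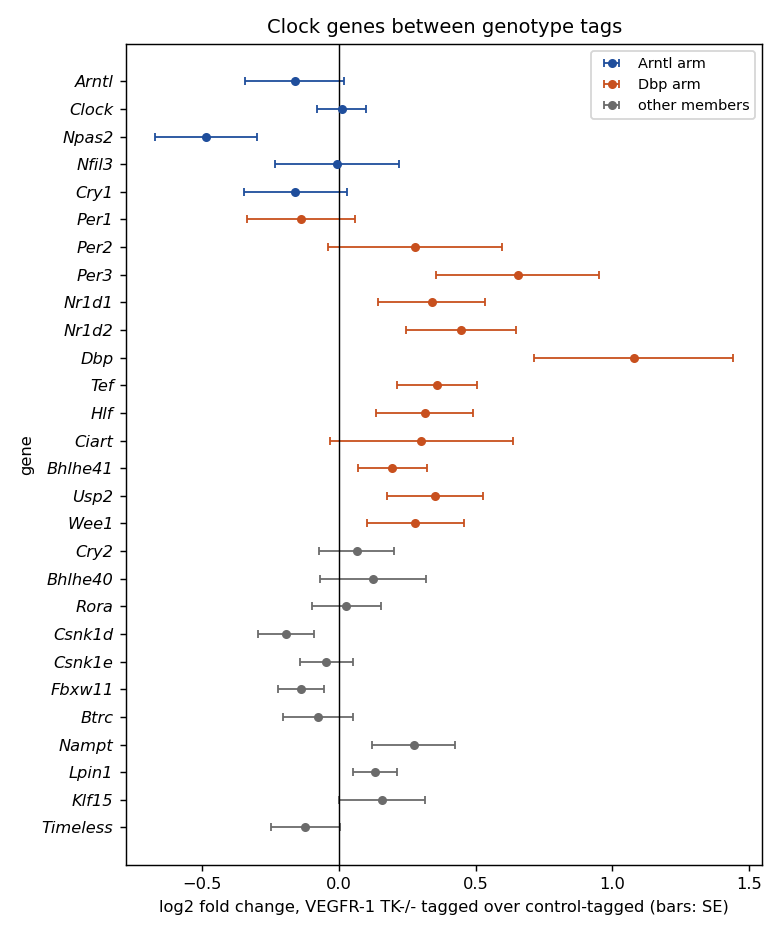
Log2 fold change of each tested member, TK-/- tagged over control-tagged libraries, with bars of 1 SE from edgeR's quasi-likelihood fit (4 libraries per group). Points of the *Dbp* arm (orange) lie to the right of 0 except *Per1* and extend to 1.08 for *Dbp*, and the other members (grey) lie between −0.19 for *Csnk1d* and 0.27 for *Nampt*.

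In 1 of 28 members the groups did not overlap, against 4.98% of all genes. This was *Lpin1*, with 192, 181, 186 and 175 normalized CPM in the control-tagged and 202, 202, 204 and 196 in the TK-/- tagged replicates. The log2 fold change was 0.13 (SE 0.08, FDR = 0.657). The exact permutation test gave p = 0.0286, the lowest value it allows, which any gene whose groups do not overlap must reach. Since *Lpin1* was picked for that lack of overlap, this p adds no evidence of a difference.

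The other 11 tested members had a median log2 fold change of 0.03, with 6 of them positive, and none had an unadjusted p under 0.05. Means with the control tag are given first, with the SD of 4 libraries. *Cry2*, the CRY repressor with the weaker rhythm, was at 30.7 ± 6.25 and 32.1 ± 2.58 normalized CPM. *Bhlhe40* (DEC1) was at 61.4 ± 11.8 and 66.8 ± 19.4, and *Rora*, which activates *Arntl* through the ROR element, at 18.0 ± 1.63 and 18.4 ± 2.52. The casein kinases that mark PER for degradation, *Csnk1d* and *Csnk1e*, had log2 fold changes of −0.19 (SE 0.10) and −0.05 (SE 0.10). Those of *Fbxw11* and *Btrc*, the β-TrCP ligases that read this mark, were −0.14 (SE 0.09) and −0.08 (SE 0.13). *Nampt* was at 147 ± 28.6 and 178 ± 29.5 normalized CPM, and *Klf15*, a regulator of cardiac metabolism and of *Kcnip2*, at 64.9 ± 11.2 and 72.4 ± 15.6. *Timeless*, which in mammals acts mainly at the replication fork, had a log2 fold change of −0.12 (SE 0.13).

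Markers of the cell types of the LV moved between the groups beside these values. For the counts below, 3.32% of all genes had an unadjusted p under 0.05 on the higher and 5.64% on the lower side. A positive log2 fold change was found in 49.7% of all genes. The summed endothelial list went from 1138 to 1455 normalized CPM in the control-tagged and from 1034 to 1181 in the TK-/- tagged libraries. Of its 6 genes, 5 were lower in the latter, 3 of them (*Cdh5*, *Pecam1* and *Tie1*) with an unadjusted p under 0.05. All 6 macrophage genes were lower, 1 of them with an unadjusted p under 0.05 (*Csf1r*), with sums of 385.5 to 506 and 258 to 396. The 6 fibroblast genes were also all lower, with sums of 1355 to 2311 and 677 to 1835, and 0 had an unadjusted p under 0.05. Of the 8 cardiomyocyte genes, 6 were higher, 2 of them (*Pln* and *Tnni3*) with an unadjusted p under 0.05. No gene of these 4 lists had an FDR under 0.1, and none had an unadjusted p under 0.05 in the fit against *Arntl* described next. Their part in the values of the clock genes was not tested. Of the lists for tissue that dissection could add, the 6 skeletal muscle genes summed to 7106 to 10621 in the control-tagged and 4837 to 6262 normalized CPM in the TK-/- tagged libraries, and 1 of the 4 tested (*Acta1*, which stressed heart muscle also expresses) had an unadjusted p under 0.05. *Acta1* and *Ckm* made up nearly all of these sums. With the control tag first, means were 4138 and 3898 normalized CPM for *Ckm*, 1.31 and 1.28 for *Mylpf* and 1.02 and 1.31 for *Tnnt3*. *Acta1* had 3125 to 6959 normalized CPM in the control-tagged and 1456 to 1854 in the TK-/- tagged libraries, without overlap. Its log2 fold change was −1.51 (SE 0.22, FDR = 0.152), and it was called by DESeq2 and the likelihood ratio test. *Nppa*, the natriuretic peptide gene of the atrial list, which loaded ventricles also express, was at 1130 ± 236 and 914 ± 383 normalized CPM (SD, n = 4 each), and the groups overlapped. The signs of both genes hang on the choice of tags over titles. The study reports *Acta1* RNA as upregulated in VEGFR-1 TK-/- LVs, the opposite of the sign under the tags. By RT-qPCR it also reports *Nppa* RNA (ANP) as raised after angII, in particular in TK-/- mice, whereas the tags give them the lower mean. Which labels hold was not tested. The adipocyte, atrial and red blood cell lists had 0 genes with an unadjusted p under 0.05, with 1, 4 and 5 genes tested. The 10 immediate early genes had 0 in either fit.

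The opposition of the arms was examined across mice by fitting every gene against the log2 level of *Arntl* with the genotype tag in the model. Most of the *Dbp* arm fell where *Arntl* rose, and *Dbp* had the lowest p of all 13541 genes. Its slope was −2.05 log2 units per log2 unit of *Arntl* (SE 0.32, quasi-likelihood FDR = 0.854). By that test 0 genes were called at an FDR under 0.1 (0% of 13541), and 253 genes (1.87%) had an unadjusted p under 0.05. Other tests called *Dbp*, the likelihood ratio test as 1 of 3 genes (FDR = 4.73e-05) and DESeq2 as its 1 gene (FDR = 5.5e-05). Its FDR ranged from 4.73e-05 to 1.00 over 17 alternatives, in 13 of which it had the lowest p of all genes. Without TK-/- tagged replicate 1 or 4, the slope of *Dbp* was −1.78 or −1.75, and with total counts in place of TMM factors it was −1.67. The p of *Dbp* then ranked 145 among all genes without replicate 1, 2 without replicate 4 and 11 with total counts.

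Of the 27 members fitted beside *Arntl*, 9 (33.3%) had an unadjusted p under 0.05, against the 1.87% of all genes. Without TK-/- tagged replicate 4 the number was 3, beside 0.823% of all genes, and without replicate 1 it was 7, beside 8.66% of all genes. The slope was negative in 8 of the 9, namely *Dbp*, *Per3*, *Tef*, *Nr1d2*, *Nr1d1*, *Per2* and *Ciart* of the *Dbp* arm and *Bhlhe40*. It was positive in *Cry1* of the *Arntl* arm (0.73, SE 0.28). In the *Arntl* arm all 4 slopes were positive, with a median of 0.49, and in the *Dbp* arm 10 of 12 were negative, with a median of −0.77. *Per3* had a slope of −1.53 (SE 0.35), *Tef* of −0.68 (SE 0.20), *Nr1d2* of −0.92 (SE 0.28) and *Nr1d1* of −0.85 (SE 0.29), and the p of *Per3* ranked 6 among all genes. The exceptions of the *Dbp* arm were *Wee1* and *Bhlhe41*, with slopes of 0.47 (SE 0.30) and 0.23 (SE 0.23). *Thra* and *Sphk2*, the antisense neighbours of *Nr1d1* and *Dbp*, had slopes of −0.16 and 0.01, each with an unadjusted p over 0.05.

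**Figure D4:**
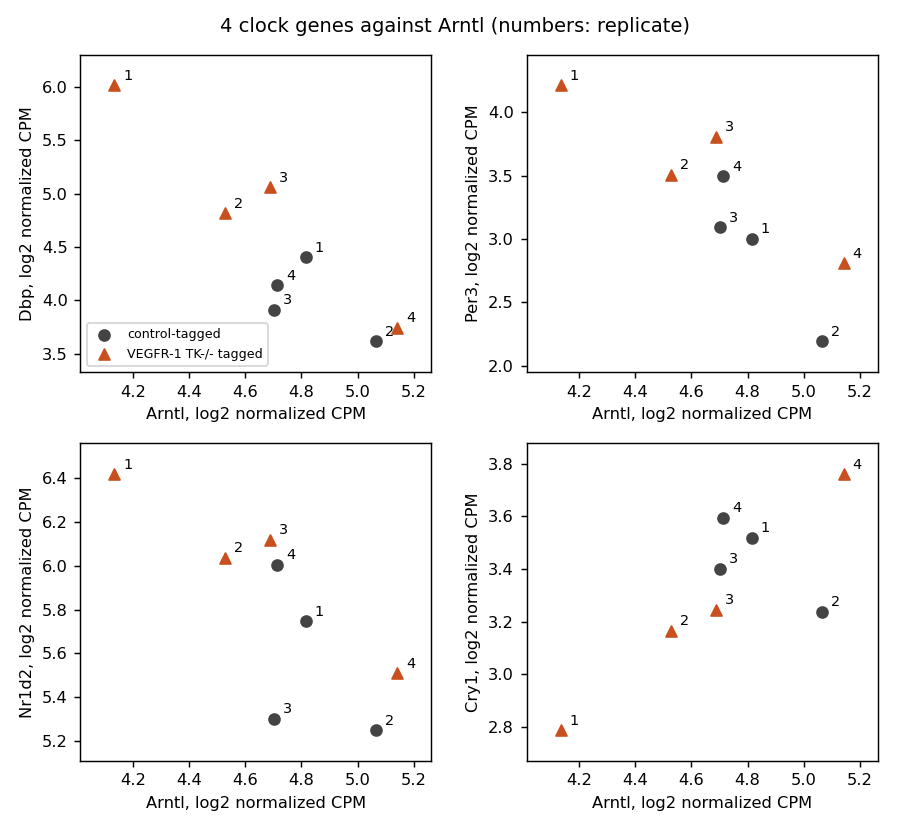
*Dbp*, *Per3*, *Nr1d2* and *Cry1* (y axes) against *Arntl* (x axes) in log2 normalized CPM, with 1 point per library (circles, control-tagged; triangles, TK-/- tagged) and its replicate number. The first 3 genes fall and *Cry1* rises with *Arntl*, and TK-/- tagged replicates 1 and 4 stand at the ends of the *Arntl* axis.

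Over the 8 libraries without the genotype in the model, Pearson's r with *Arntl* was −0.90 for *Dbp* (2-sided exact permutation p = 0.00233) and Spearman's rho was −0.86 (exact permutation p = 0.0107). For *Per3*, r was −0.88 (exact permutation p = 0.0063) and rho −0.93 (exact permutation p = 0.00223), and for *Tef*, r was −0.84 (exact permutation p = 0.00501) and rho −0.79 (exact permutation p = 0.0279). Adjusted over all 13541 genes, these permutation p-values were 0.998 for r and 0.772 for rho in each case. TK-/- tagged replicates 1 and 4 were farthest from the median of *Arntl*. Without both, r was −0.71 for *Dbp*, −0.87 for *Per3* and −0.75 for *Tef*, so the direction did not rest on these libraries. For *Nr1d1* r went from −0.77 to −0.44, for *Ciart* from −0.60 to 0.21, for *Bhlhe40* from −0.67 to 0.10 and for *Cry1* from 0.78 to 0.08 without them, so that of the 9 members the relations of *Ciart*, *Bhlhe40* and *Cry1* rested on those 2 mice. In the *Arntl* arm, r of *Nfil3* also went from 0.43 to −0.41. After the group means were taken off, r with *Arntl* was −0.92 for *Dbp*, −0.87 for *Per3* and −0.85 for *Tef*. The groups of 4 are too small for a correlation of their own.

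**Figure D5:**
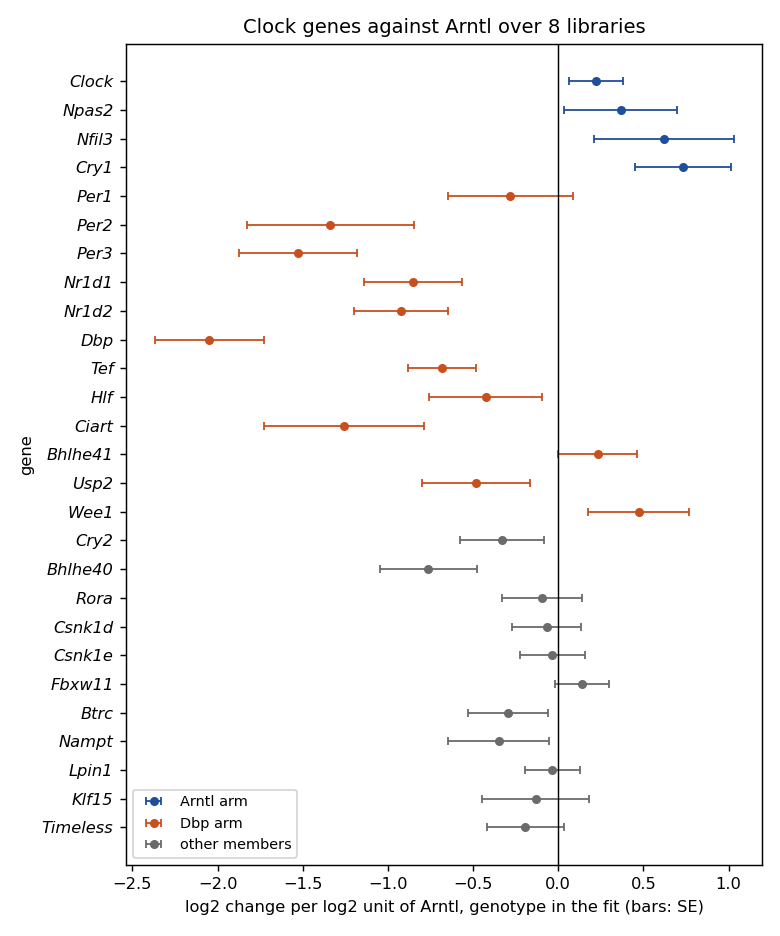
Slope of each member on *Arntl* (log2 change per log2 unit of *Arntl*, genotype tag in the fit, 8 libraries) with bars of 1 SE. The *Arntl* arm (blue) lies to the right of 0, and the *Dbp* arm (orange) reaches −2.05 for *Dbp*, with *Wee1* and *Bhlhe41* to the right of 0.

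Genes around the clock were less uniform. Of 19 further clock regulators, among them *Cipc*, *Sirt1* and *Ncor1*, 18 were tested, and 0 had an unadjusted p under 0.05 in either fit. Of 19 candidate output genes of the heart clock, 14 had a positive log2 fold change, against 49.7% of all genes. An unadjusted p under 0.05 was reached by 5, against 8.96% of all genes. All 5 were on the higher side in the TK-/- tagged libraries, where 3.32% of all genes lay. *Kcnip2*, the potassium channel subunit KChIP2, was at 202 ± 37.0 normalized CPM with the control tag and 261 ± 24.0 with the TK-/- tag (SD, n = 4 each), or a log2 fold change of 0.37 (SE 0.14, FDR = 0.489). *Kcnh2*, another potassium channel gene, had a log2 fold change of 0.28 (SE 0.11, FDR = 0.508). *Ucp3* and *Pdk4* serve fuel use. *Ucp3* had 25.4 to 46.5 normalized CPM in the control-tagged and 59.1, 135, 64.8 and 44.6 in the TK-/- tagged replicates, and *Pdk4*, which closes the pyruvate dehydrogenase gate, 444 to 694 and 607, 1579, 691 and 699.5. The log2 fold changes were 0.98 (SE 0.30, FDR = 0.453) for *Ucp3* and 0.61 (SE 0.28, FDR = 0.554) for *Pdk4*. In both the highest library was TK-/- tagged replicate 2, not replicate 1 that led the *Dbp* arm. None of the 5 had an unadjusted p under 0.05 against *Arntl*. In that fit 1 of the 19 passed at this level, beside 1.87% of all genes. This was *Cdkn1a*, a cell cycle inhibitor, with a slope of 0.82 (SE 0.27).

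Among 15 glucocorticoid-responsive genes, 1 had an unadjusted p under 0.05 between the groups, on the lower side, where 5.64% of all genes lay. This was *Errfi1*, with a log2 fold change of −0.47 (SE 0.19, FDR = 0.521). Against *Arntl*, 2 of the 15 passed at this level, beside 1.87% of all genes. These were *Cdkn1a* and *Fkbp5*, a cochaperone of the glucocorticoid receptor, which had a slope of 0.85 (SE 0.37). Among 10 temperature-responsive genes, 2 had an unadjusted p under 0.05 between the groups, both on the lower side. These were *Hspa1a* and *Hspa1b*, with log2 fold changes of −1.77 (SE 0.81) and −2.02 (SE 0.87). The exact permutation test gave p = 0.343 for each. Control-tagged replicate 1 was highest at 169 and 177 normalized CPM, and the near-identical pair could share reads. No gene of the 4 lists had an FDR under 0.1.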

How the data were processed

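RNA of the LV was sequenced by the authors from 8 mice, 4 per genotype tag. Their methods give poly-A selection and a stranded library kit, whereas the labels give depletion of ribosomal RNA. Per the labels and the methods, the authors trimmed reads with Trim Galore 0.4.4 (Phred 30), aligned them to GRCm38 with STAR 2.5.4b and counted them on GENCODE M16 with featureCounts. The deposited values are whole-number counts per gene, not normalized. Strand and multi-mapping settings of the counting are not given in the sources used here, and counting without strand would add reads of antisense genes.

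The members, lists, arms, tests and alternatives were chosen with earlier results of these data known. The 13542 genes that reached a CPM of 1 in 2 or more libraries were normalized by TMM. They were fitted in edgeR 4.0.16 (R 4.3.3) by quasi-likelihood, and p-values were adjusted by Benjamini-Hochberg over all of them. Calls used the authors' thresholds, an FDR under 0.1 and a change of 1.5-fold or more. The second fit held the genotype tag and the log2 normalized CPM of *Arntl* (prior count 2), tested over 13541 genes at an FDR under 0.1. Single values were compared by exact permutation over libraries. The fits were tested on simulated data. Positions and exon lengths come from GENCODE M21, promoter windows from RefSeq. The authors' likelihood ratio test and DESeq2 1.42.0 were alternatives. No pair of replicates agreed within sampling noise, since chi-square over its degrees of freedom was 7.20 to 53.7. Whether mice of a group shared a litter or a day of collection is not given in the sources used here, so p-values measure the spread between these 8 libraries. Named genes were the members, list genes with an unadjusted p under 0.05 in the genotype fit, *Flt1*, and the 10 other genes with the lowest p in each direction against *Arntl*. List genes with an unadjusted p under 0.05 against *Arntl* and the antisense neighbours were named after their values were seen. A few genes that these rules select are not reported here.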

Additional observations from a re-analysis of the deposited data

Results flagged for a closer look

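In 2 of the 56 groups of 4 libraries (28 tested members in each genotype tag), 1 library stood apart from the other 3 by more than Dixon's 95% limit on the log2 scale. Chance flags about 1 group in 20. *Usp2* was at 99.6 normalized CPM in TK-/- tagged replicate 4 and at 125 to 127 in the other 3 libraries of that group. *Btrc* was at 31.7 normalized CPM in control-tagged replicate 3 and at 22.9 to 23.2 in the other 3.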

How the results depend on the processing

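The number of genes called between the genotype tags was 1 and became 53 with the likelihood ratio test, 32 with DESeq2 and 23 with no filter on low counts, with a range of 1 to 3 when 1 library was left out. None of the 28 members was called under any of the 17 alternatives. The number of members with an unadjusted p under 0.05 ranged from 1 to 11 when 1 library was left out and was 1 with *Arntl* as a covariate. Against *Arntl*, the number of genes called was 0, and it became 3 with the likelihood ratio test, 1 with DESeq2 and 1 with no filter on low counts, *Dbp* being among them each time. It was 0 to 0 when 1 library was left out. Why these counts moved was not tested.

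The sign of a member's log2 fold change was kept in 451 of 476 values. It reversed for *Clock* with total counts (−0.011), for *Nfil3* with the replicate block (0.0036), and with *Arntl* as a covariate for *Bhlhe40* (−0.075), *Ciart* (−0.031), *Per2* (−0.0019) and *Nfil3* (0.072). Leaving out 1 library reversed the sign of 10 members. Their ranges were −0.086 to 0.25 for *Bhlhe40*, −0.12 to 0.051 for *Btrc*, −0.18 to 0.51 for *Ciart*, −0.031 to 0.050 for *Clock*, −0.031 to 0.19 for *Cry2*, −0.097 to 0.019 for *Csnk1e*, −0.0074 to 0.25 for *Klf15*, −0.16 to 0.16 for *Nfil3*, −0.26 to 0.032 for *Per1* and −0.032 to 0.12 for *Rora*. 

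Whether replicate numbers pair the mice is not given in the sources used here, and correlations over genes could not decide it. The deviations of same-numbered libraries from their group means correlated at −0.055 to 0.34 over genes, and not every library correlated best with its own number. With the replicate block, 1 gene was called and 6 members had an unadjusted p under 0.05, beside 9.19% of all genes. The *Dbp* slope on *Arntl* was then −1.57. Grouping by the sample titles was not refitted, because it exchanges the groups and turns every sign. At this depth a gene at 1 CPM has few reads, and *Fbxl21* could not be compared.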

Other observations

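Within the *Dbp* arm the mice did not differ along a single line. Control-tagged replicate 4 had the lowest *Nr1d1* of all 8 libraries (85.2 normalized CPM) together with the highest *Per1* (113) and *Usp2* (132) and, among the control-tagged libraries, the highest *Per2* (21.6), *Per3* (11.3) and *Nr1d2* (64.2). In textbook time courses *Nr1d1* peaks before *Per1* and *Per2*. TK-/- tagged replicate 1 had *Nr1d1* (181), *Dbp* (64.8), *Ciart* (14.95), *Per2* (21.9) and *Per3* (18.5) all at their highest. Control-tagged replicate 2 and TK-/- tagged replicate 4, from opposite groups, had nearly the same *Arntl* (33.5 and 35.3) and *Dbp* (12.3 and 13.4). They differed in *Nfil3* (19.6 and 35.6) and *Cry1* (9.44 and 13.6).

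Outside the members, the 10 genes with the lowest p among those that fell with *Arntl* were *H2-K2*, *Amy1*, *Banp*, *Acrbp*, *Hlx*, *Vdac3-ps1*, *Cd247*, *Lrrc45*, *Noxred1* and *Dtx1*. Among the 10 that rose were *3830403N18Rik*, *Slc7a5*, *Pf4*, *Scd2*, *Aldh1a2*, *Casc4*, *Bard1*, *Pspc1* and *Sema3c*. By quasi-likelihood none of them passed an FDR of 0.1, while *3830403N18Rik* (FDR = 0.00152) and *H2-K2* (FDR = 0.0567) did so by the likelihood ratio test. The log2 normalized CPM of the pseudogene *Vdac3-ps1* was 0.74 in TK-/- tagged replicate 4 and 3.75 to 4.54 in the other 7 libraries.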
